A study of Mus musculus with 6 samples.

Results

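The genes described here encode subunits of the membrane domain of mitochondrial ATP synthase. They were all genes on the array whose symbol starts with ATP5M, taken with every probe and spot, which gave 7 genes of the 1521 named ones: ATP5MC1, ATP5MC2, ATP5MC3, ATP5MF, ATP5MG, ATP5MJ and ATP5MK. Each had 1 probe printed in 2 spots, so 14 of the 5376 spots on an array belonged to them. The study set a MyoD-silenced clone against control cells of C2C12, a myoblast line from C3H mouse muscle that fuses into myotubes when serum is lowered. The clone, MyoD(-)cl.A8, carried the mouse MyoD transcript in antisense in the vector pcDNA 3.0 and had been picked among G-418 resistant cells. The sources used here do not say whether the control C2C12 cells carried a vector, and 1 clone stands for the silencing. RNA of clone and control was hybridised together to a 2-colour muscle array made for human genes after 1, 3 and 6 days in differentiating medium, with 2 arrays per day on which the dyes were exchanged. On replicate A the clone carried Cy5 and on replicate B it carried Cy3. Gene symbols are those of the human probes, and how well mouse RNA bound them was not tested.

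ATP synthase makes ATP from ADP and phosphate. Protons that return through its membrane domain, Fo, turn a ring of c subunits, and the turning ring drives a catalytic head, F1, which projects into the matrix and is held by a peripheral stalk. Differentiating muscle cells build up mitochondria, and their ATP synthase sits in paired rows along the edges of the inner membrane folds, where small Fo subunits take part in joining the pairs. ATP5MC1, ATP5MC2 and ATP5MC3 encode the same mature c subunit behind different import peptides. Whether the probes told their RNAs apart was not tested.

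The values are scores per spot for clone against control, with scale, centring and direction not stated. A positive score is taken to mean more RNA in the clone; this is likely but not certain, and rests on the labels, which name the clone as the test. The deposited spots had medians from -0.05 to 0.04 and SDs from 1.41 to 1.62 on the 6 arrays, and the features were centred on each array's median. Arrays of one day correlated at 0.16 to 0.21 over the 2466 features, which are genes and unnamed probes, and arrays of different days at -0.08 to 0.12. The spots of a pair correlated at 0.25 to 0.60 within an array. Odd-numbered spots stood above their even-numbered partners on every array, with medians of the difference from 0.38 to 0.73. Both arrays of a day were counted as 1 replicate because they compare the same kinds of cells with crossed dyes, so a mean over the study has n = 3 days and a single day has no replicate. Signal over background was not used here, and in bulk RNA fewer cells of a type and less RNA per cell cannot be told apart. MYOD1, the silenced gene, scored between -1.03 and 1.11 on the 6 arrays. The antisense construct also carries MyoD sequence, and whether the probe bound its RNA was not tested. These scores are therefore not a check of the silencing. Of 19 myotube markers 13 were matched by symbol, and 5 of these 13 had a mean over the days above 0. The median of the 13 was -0.23 on day 1, -0.20 on day 3 and 0.76 on day 6. MYLPF, which is on the array as MYL11, was not matched and is left out of these values. Of 16 markers of other lineages 5 were measured, with 1 mean above 0. A score compares clone with control, so it does not show whether a marker was present.

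The promoters of the mouse genes are shown for the 4 members with the largest day means, so that their E-boxes can be seen. The E-box, CANNTG, is the general form of the sites that MyoD-type factors bind, and not every form of it need be read by MyoD. The 250 bases before an annotated transcript start (RefSeq, GRCm38.p6) were found for 6 of 7 members, not for ATP5MJ. All 4 lie on the minus strand and are printed 5′ to 3′, with E-boxes in capitals. The ATP5MC3 window (mouse symbol Atp5g3) is chr2:73911327-73911576, which falls inside the annotated span of the gene. The ATP5MC2 window (Atp5g2) is chr15:102671048-102671297, that of ATP5MK (Atp5md) is chr19:47090648-47090897, and that of ATP5MG (Atp5l) is chr9:44920743-44920992.
ATP5MC3: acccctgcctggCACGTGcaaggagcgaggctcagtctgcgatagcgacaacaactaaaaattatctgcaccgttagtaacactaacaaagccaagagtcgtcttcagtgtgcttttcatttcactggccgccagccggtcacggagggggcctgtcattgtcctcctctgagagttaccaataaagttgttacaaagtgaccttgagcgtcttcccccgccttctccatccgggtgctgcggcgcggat
ATP5MC2: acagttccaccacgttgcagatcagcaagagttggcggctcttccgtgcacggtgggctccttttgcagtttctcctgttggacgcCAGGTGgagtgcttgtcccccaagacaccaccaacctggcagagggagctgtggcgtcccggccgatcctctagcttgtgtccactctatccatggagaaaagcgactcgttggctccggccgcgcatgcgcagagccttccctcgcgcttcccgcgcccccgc
ATP5MK: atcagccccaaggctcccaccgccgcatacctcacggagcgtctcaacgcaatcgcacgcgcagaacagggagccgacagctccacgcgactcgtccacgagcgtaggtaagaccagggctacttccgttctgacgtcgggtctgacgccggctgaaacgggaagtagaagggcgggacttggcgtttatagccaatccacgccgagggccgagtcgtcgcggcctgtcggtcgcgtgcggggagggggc
ATP5MG: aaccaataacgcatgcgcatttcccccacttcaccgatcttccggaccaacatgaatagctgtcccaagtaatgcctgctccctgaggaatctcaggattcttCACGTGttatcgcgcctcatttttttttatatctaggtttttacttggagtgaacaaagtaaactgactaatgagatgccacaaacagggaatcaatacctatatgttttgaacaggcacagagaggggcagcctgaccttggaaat

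An E-box was found in 4 of the 6 members' windows, against 66.2% of all 32851 windows of this length. ATP5MC1 had 2, ATP5MC2, ATP5MC3 and ATP5MG had 1 each, and ATP5MF and ATP5MK had 0. The form was CACGTG in ATP5MC3 and ATP5MG, CAGGTG in ATP5MC2, and CAATTG and CACGTG in ATP5MC1. The form CAGCTG, one of those that MyoD is known to bind, was in 0 of the 6 and in 13.0% of all windows. It is one of the sequences that CANNTG covers. The share of all windows with CAGGTG or any other single form was not counted. The ETS core CCGGAA, which GABPA is known to read, was in the ATP5MG window and in 3952 of the 32851 windows. Both strands were searched. The matches are descriptions of these letters and say nothing of binding.

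ATP5MC3 was the c subunit gene with the highest mean over the days, and its scores were above 0 on 5 of 6 arrays. They were -0.24 and 1.21 on the day 1 replicates A and B, 2.01 and 2.18 on day 3, and 1.34 and 2.99 on day 6. The day 1 arrays lay on either side of 0, and all 4 later arrays lay above both of them. At the level of single spots, the 4 spots of day 3 ran from 1.48 to 2.54 and the 4 of day 6 from 1.19 to 3.68. Its mean over the days was 1.58 ± 0.95 (SD, n = 3 days), rank 23 from the top of 2466 features, and did not pass limma's test over all features (adjusted p = 0.209). Without day 1 the mean of the remaining days was 2.13 and passed (limma's adjusted p = 0.0396), as did 29 features in all; over all alternatives its adjusted p ran from 0.0396 to 0.979.

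ATP5MC2 had a day 6 score that rested on 1 of its 2 spots. The averaged scores were 0.12 and -0.11 on the day 1 replicates A and B, 2.13 and -0.77 on day 3, and 2.43 and 2.37 on day 6. The day 6 arrays gave nearly the same average, but the spots behind it did not: the odd-numbered spot stood at 5.33 on replicate A and 7.48 on replicate B, and the even-numbered spot at -0.48 and -2.75. The gap of 10.2 units on replicate B was among the widest 11 of 2688 probes, or 0.409%, and the gap of 5.82 on replicate A was within the widest 1.97%. On replicate B all 11 probes with a gap this wide had the odd spot higher, all lay between spots 167 and 344, and 9 of the other 10 lay within 50 probes of ATP5MC2. ATP5F1E and EEF1G were among them. On replicate A the 53 probes with a gap at least as wide as that of ATP5MC2 ran from spot 9 to spot 5372, and 7 of the others lay within 50 probes of it, so the wide gaps of that array were not held to the same stretch. On the even-numbered spot alone the day 6 mean of ATP5MC2 was -1.18, on the odd-numbered spot alone 5.97. Here and below, values on 1 spot of each pair alone were centred on the array median of the features from those spots. They therefore differ from means of the spot scores above, which were centred on the averaged features. Its mean over the days, 1.03 ± 1.23 (SD, n = 3 days; limma's adjusted p = 0.731), was -0.23 on even-numbered spots alone.

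**Figure D1:**
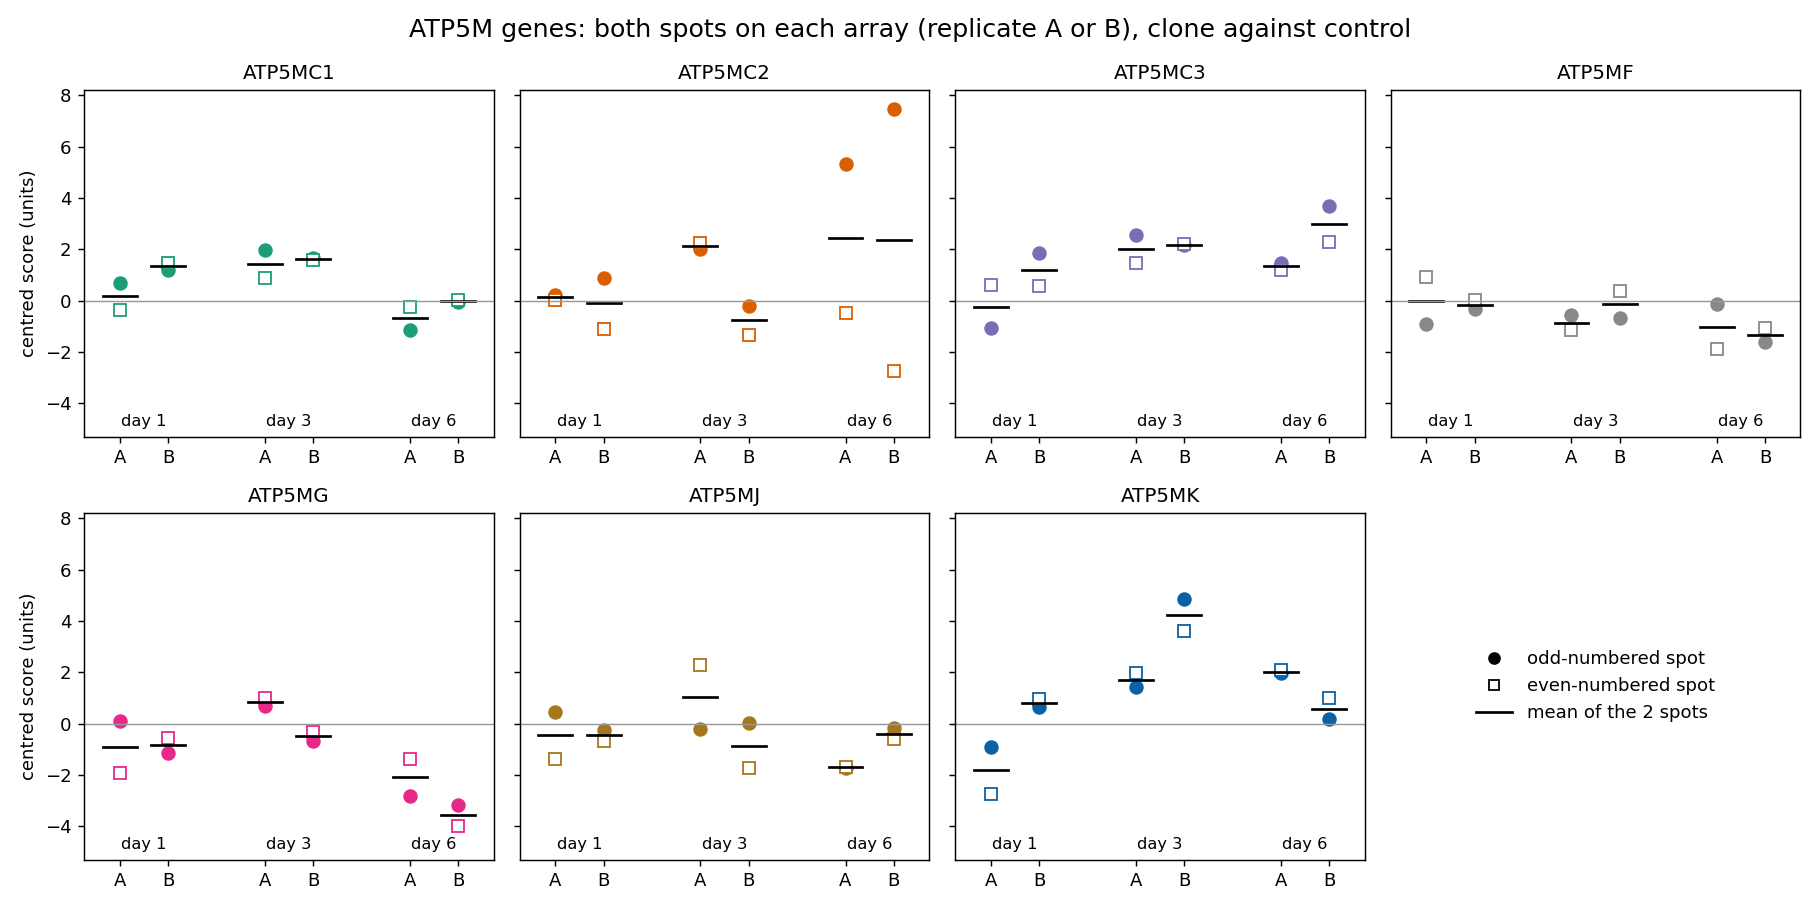
Score of each spot of the 7 ATP5M genes, centred on the median of its array (vertical axis, units), by day and replicate array (horizontal axis); filled circles are odd-numbered spots, open squares even-numbered spots and black bars their mean. The 2 spots of ATP5MC2 stand 10.2 units apart on the day 6 replicate B, while all 8 spots of ATP5MC3 on days 3 and 6 lie at or above 1.19.

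ATP5MC1, the remaining c subunit gene, scored 0.16 and 1.34 on the day 1 replicates A and B, 1.42 and 1.60 on day 3, and -0.69 and -0.02 on day 6. Both arrays of days 1 and 3 were above 0 and both of day 6 below it, though the day 6 replicate B was close to 0. Its day means were 0.75, 1.51 and -0.36, and its mean over the days was 0.64 ± 0.94 (SD, n = 3 days; limma's adjusted p = 0.899). The day 6 mean was 0.31 on even-numbered spots alone and -1.03 on odd-numbered ones, so its side of 0 on that day was not settled. The 3 c subunit genes thus had day 3 means of 1.51, 0.68 and 2.10 and day 6 means of -0.36, 2.40 and 2.16, in the order ATP5MC1, ATP5MC2 and ATP5MC3.

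ATP5MG, which encodes subunit g of the domain that joins ATP synthase pairs, was the member with the lowest mean. Its scores were -0.91 and -0.84 on the day 1 replicates A and B, 0.84 and -0.50 on day 3, and -2.09 and -3.57 on day 6. The day 6 arrays lay below all 4 earlier ones. All 4 spots of day 6 were negative, from -3.98 to -1.38, and the 2 spots of the pair differed there by 1.42 and 0.81 units, against medians over all probes of 1.02 and 0.82. Its spots, 341 and 342, lie in the stretch that held the widest gaps on replicate B, and their own gap there was not among them. The mean over the days was -1.18 ± 1.52 (SD, n = 3 days; adjusted p = 0.674 in limma), rank 2416 of 2466 from the top. With the median of 10 neighbouring probes subtracted the day 6 mean was -1.87, and it then no longer reached 2 units on both arrays.

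ATP5MF, which encodes subunit f, scored -0.01 and -0.16 on day 1, -0.86 and -0.14 on day 3, and -1.02 and -1.33 on day 6. It was below 0 on 6 of 6 arrays, which held for 1 of 7 members and 2.88% of all features (and above 0 on 6 of 6 for 0 members and 2.64%), but the day 1 scores were close to 0. All 4 spots of day 6 were below 0, from -1.88 to -0.15. Its mean was -0.59 ± 0.55 (SD, n = 3 days; limma's adjusted p = 0.908).

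ATP5MK encodes DAPIT, a small Fo subunit known to help hold the paired enzyme together, and ATP5MJ a small proteolipid of the same domain. ATP5MK scored -1.82 and 0.80 on the day 1 replicates A and B, 1.69 and 4.24 on day 3, and 2.03 and 0.59 on day 6. The day 1 arrays had opposite signs, and the 4 later arrays were all above 0. The 4 spots of day 3 ran from 1.42 to 4.87 and those of day 6 from 0.17 to 2.10. Its day 3 mean of 2.97 ranked 6 from the top of 2466 features, yet replicate A stood below 2 units. The mean over the days was 1.25 ± 1.74 (SD, n = 3 days; adjusted p = 0.657 in limma), and without day 1 it was 2.14 (0.0428; over all alternatives 0.0428 to 0.990).

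ATP5MJ scored -0.45 on both arrays of day 1, 1.05 and -0.85 on day 3, and -1.70 and -0.39 on day 6. The day 3 arrays disagreed in sign, and so did the spots of that day, which ran from -1.73 to 2.29. Its mean was -0.47 ± 0.57 (SD, n = 3 days; limma's adjusted p = 0.954).

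The first comparison asked whether clone and control differed in a member across the whole time course. In limma 0 of 7 members passed over all features, where 9 of 2466 features, or 0.365%, did. At an unadjusted p under 0.05 in limma there were 3 members, ATP5MC3, ATP5MG and ATP5MK, against 6.65% of all features. Of the 7 means 4 were above 0 and 3 below, against 50.3% of all features above 0, and the median of the members was 0.64 against 0.0028 over all features. The members spread widely: their range, -1.18 to 1.58, went beyond the 5th and 95th percentiles of all features, -0.86 and 0.87, on both sides. ATP5MC3, ATP5MK and ATP5MC2 lay above the upper one and ATP5MG below the lower one. Dye orientation did not turn a direction: over the 3 replicate A arrays the means were 0.30, 1.56, 1.03, -0.63, -0.72, -0.37 and 0.63, and over the 3 replicate B arrays 0.98, 0.49, 2.12, -0.54, -1.64, -0.56 and 1.88, in the order ATP5MC1, ATP5MC2, ATP5MC3, ATP5MF, ATP5MG, ATP5MJ and ATP5MK.

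Day by day, the question was which members stood at least 2 units from 0 in 1 direction on both arrays, a rule with no test behind it. On day 1 this held for 0 members, against 0.811% of all features. On day 3 it held for ATP5MC3 on the higher side, against 0.446% of all features, and for 0 members on the lower side (0.811%). On day 6 it held for ATP5MC2 on the higher side (0.689% of all features) and ATP5MG on the lower side (1.14%). ATP5MC2 reached it only through its odd-numbered spot. The ATP5MC3 call rested on 2.01 units on replicate A and ended with arrays scaled alike, with named genes alone, on either spot of the pair alone or with neighbouring probes subtracted, and the ATP5MG call ended with arrays scaled alike, on even-numbered spots alone or with neighbouring probes subtracted. All 4 spots of a day lay at least 1 unit above 0 for ATP5MC3 and ATP5MK on day 3 (1.41% of all probes) and for ATP5MC3 on day 6 (2.16%). All 4 lay at least 1 unit below 0 for ATP5MG on day 6 (2.79%), for 0 members on day 3 (2.08%), and for 0 members on day 1 on either side (1.04% on each). A limma model with the days as coefficients, in which the only error is the disagreement of dye-swapped arrays, passed 0 members on any day, against 0.243%, 0.324% and 0.284% of all features on days 1, 3 and 6. At an unadjusted p under 0.05 in that fit there were 0, 3 and 3 members, against 6.16%, 9.57% and 11.1% of all features.

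**Figure D2:**
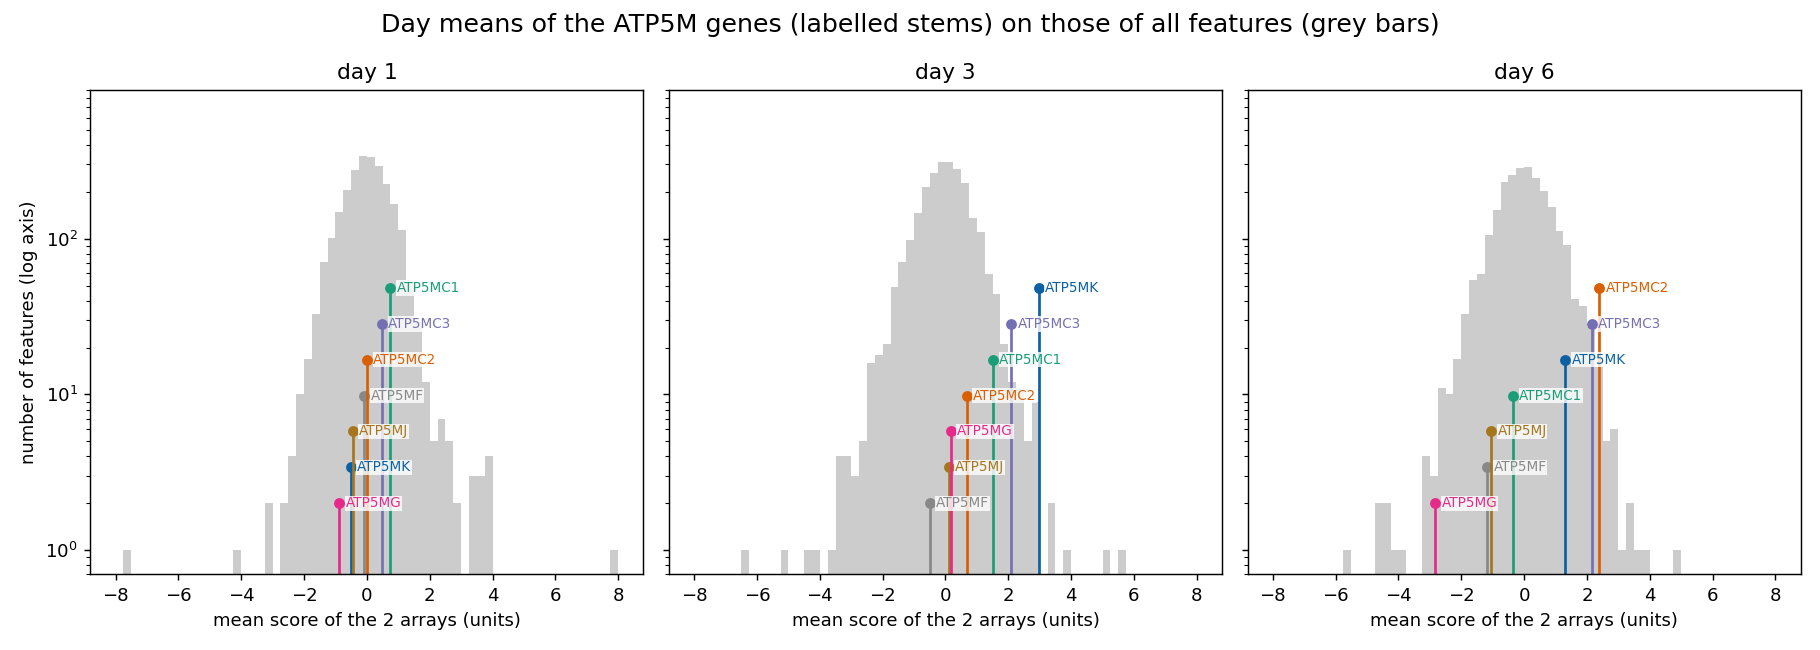
Histograms of the day means of all 2466 features (grey, mean score of the 2 arrays on the horizontal axis, number of features on a log vertical axis) with each ATP5M gene as a labelled stem; stem height only separates the labels. The 7 genes lie between -0.87 and 0.75 on day 1, between -0.50 and 2.97 on day 3 and between -2.83 and 2.40 on day 6.

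The members lay closer together on day 1 than on day 6. Their scores spanned 1.98 and 2.18 units on the day 1 replicates A and B, 2.99 and 5.09 on day 3, and 4.52 and 6.56 on day 6. On day 1, 3 of 7 day means were above 0, on day 3 there were 6 and on day 6 again 3, against 50.9%, 50% and 50.2% of all features. The 6 of day 3 included ATP5MC2, ATP5MG and ATP5MJ, whose arrays of that day disagreed in sign. On the day 6 replicate A the highest member was ATP5MC2 at 2.43, from spots at 5.33 and -0.48. The next there was ATP5MK at 2.03. The scores of all spots also spread more on day 6. Their SDs were 1.43 and 1.41 on the day 1 replicates A and B, and 1.62 and 1.56 on day 6. Whether the members widened more than all features was not tested. ATP5MC1 and ATP5MC3 each scored above ATP5MG on 6 of 6 arrays, by 1.82 and 2.76 units on average, and both scored above ATP5MJ on 6 of 6 as well. ATP5MG scored above ATP5MK on 1 of 6 arrays, with a mean difference of -2.43 units. In the order of mean over the days, ATP5MC3 (1.58), ATP5MK (1.25), ATP5MC2 (1.03), ATP5MC1 (0.64), ATP5MJ (-0.47), ATP5MF (-0.59) and ATP5MG (-1.18), each step between neighbours was smaller than the SD over the days of at least one of the pair, except that from ATP5MC1 to ATP5MJ.

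The difference between days asked whether members moved as differentiation went on. In the limma fit of the 6 arrays 0 of 7 members passed from day 1 to day 3, from day 1 to day 6 or from day 3 to day 6, against 0.162%, 0.365% and 0.0406% of all features, and with an unadjusted p under 0.05 there was 1 member in each (7.62%, 8.27% and 8.76% of all features). The member with the largest move was, in that order, ATP5MK at 3.48 (adjusted p = 0.524), ATP5MC2 at 2.39 (0.569) and ATP5MG at -3.00 (0.296). The size of the ATP5MK move depended on single arrays: it was 2.17 when replicate A of day 1 was left out and 4.79 when its partner was, and 4.75 and 2.20 when replicates A and B of day 3 were left out in turn. The ATP5MG move was -1.71 (limma's adjusted p = 0.609) with neighbouring probes subtracted. On odd-numbered spots alone the day 1 to day 6 move of ATP5MC2 was 5.75 and passed (limma's adjusted p = 0.0464, 0.0464 to 0.955 over all alternatives), and on even-numbered spots alone it was -0.95.

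**Figure D3:**
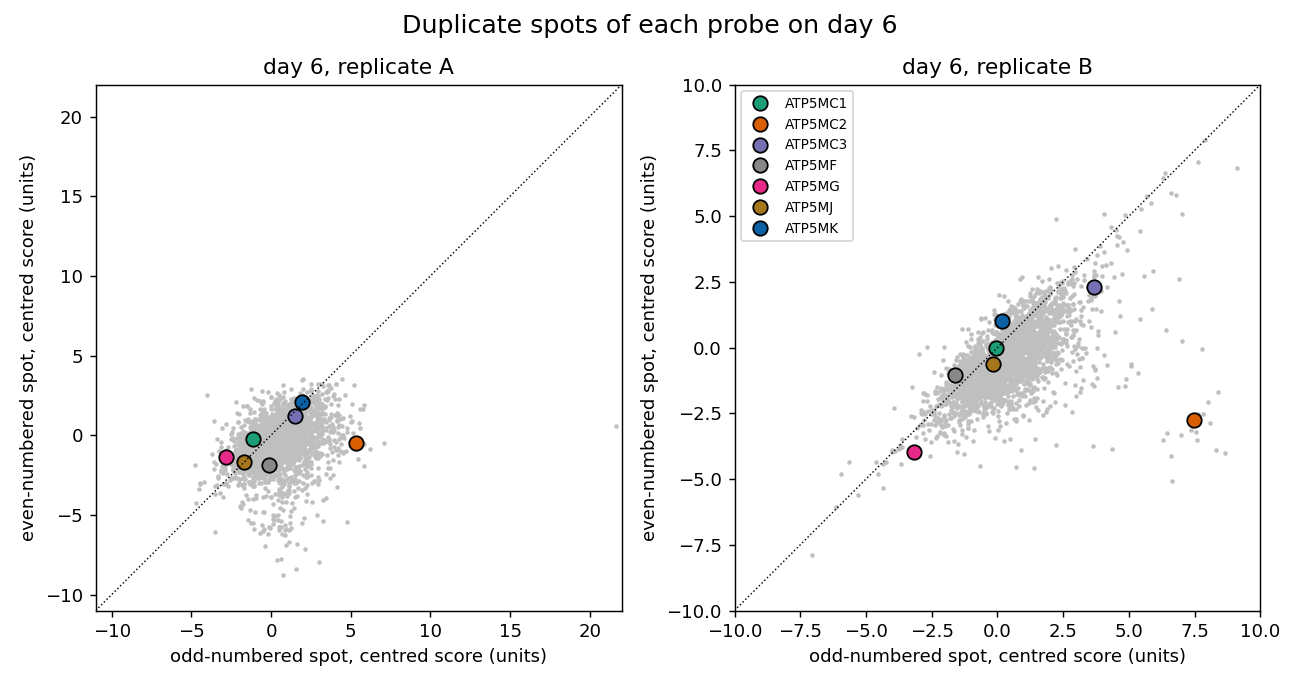
Even-numbered against odd-numbered spot of each of the 2688 probes on the day 6 arrays (centred scores in units; grey points), with the ATP5M genes in colour and a dotted line where both spots are equal; the axes of the 2 panels differ in range. ATP5MC2 lies far to the right of the line on both arrays, at 7.48 against -2.75 on replicate B. ATP5MG lies below 0 on both spots of both arrays, at -2.80 against -1.38 on replicate A and -3.17 against -3.98 on replicate B. Other probes, among them LDB3, lie lower on both spots.

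The rest of the enzyme is given for comparison. Of the catalytic head and central stalk, 4 of 5 genes were measured and 4 of the 4 had a mean above 0, with a median of 0.77; 0 passed limma's test. ATP5F1A, the alpha subunit, scored highest there at 1.03 ± 0.21 (SD, n = 3 days) and was above 0 on all 6 arrays. ATP5F1B, the catalytic beta subunit, had day means of 0.23, 2.05 and 0.30. ATP5F1E, the small epsilon subunit, was the lowest at 0.44, and its day 6 mean of 2.26 came, as in ATP5MC2, from spots that stood apart, at 6.20 and 6.98 on the odd-numbered spot and -0.83 and -3.31 on the even-numbered one on replicates A and B. The peripheral stalk had 2 genes measured of 4, ATP5PB at 0.13 and ATP5PO at -0.23, and the inhibitor and assembly list 2 of 7, FMC1 at 0.09 and the inhibitor ATP5IF1 at -0.03. Those 4 genes stayed between the 5th and 95th percentiles of all features.

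The respiratory chain, which pumps the protons that Fo uses, had 49 genes measured, 39 with a mean above 0 and 10 below, and a median of 0.38 against 0.0028 for all features; 0 passed limma's test. Complex I had 23 of 30 above 0, from NDUFA2 at -0.89 to NDUFS1 at 1.17. The single gene of complex II, SDHA, stood at 0.80. Complex III with cytochrome c had 7 of 8 above 0, from UQCRQ at -0.18 to UQCRH at 1.12, and complex IV 9 of 11, from COX8A at -0.83 to COXFA4 at 0.83. COXFA4 stands in the lists of both complex I and complex IV and was counted once in the total. Below 0 were 3 of 7 ATP5M genes, 10 of 49 genes of the respiratory chain and 1225 of all 2466 features. The ATP5M share thus lay near that of all features, and the share of the chain was smaller. These differences were not tested. Carriers of phosphate, ADP and ATP had 4 of 5 above 0, with the ADP and ATP exchanger SLC25A5 highest at 1.17 and the outer membrane channel VDAC3 lowest at -0.26. Of regulators of mitochondrial gene expression 2 of 10 were measured, ESRRA at 0.49 ± 0.24 and POLRMT at 0.80 ± 1.36 (SD, n = 3 days). The POLRMT mean rested on the day 1 replicate A at 4.90, with the other arrays between -0.92 and 0.63. The vacuolar ATPase, a related rotary enzyme that acidifies lysosomes, had 2 of 8 above 0 and a median of -0.33, from ATP6V0A1 at -1.02 to ATP6V1E1 at 0.13.

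**Figure D4:**
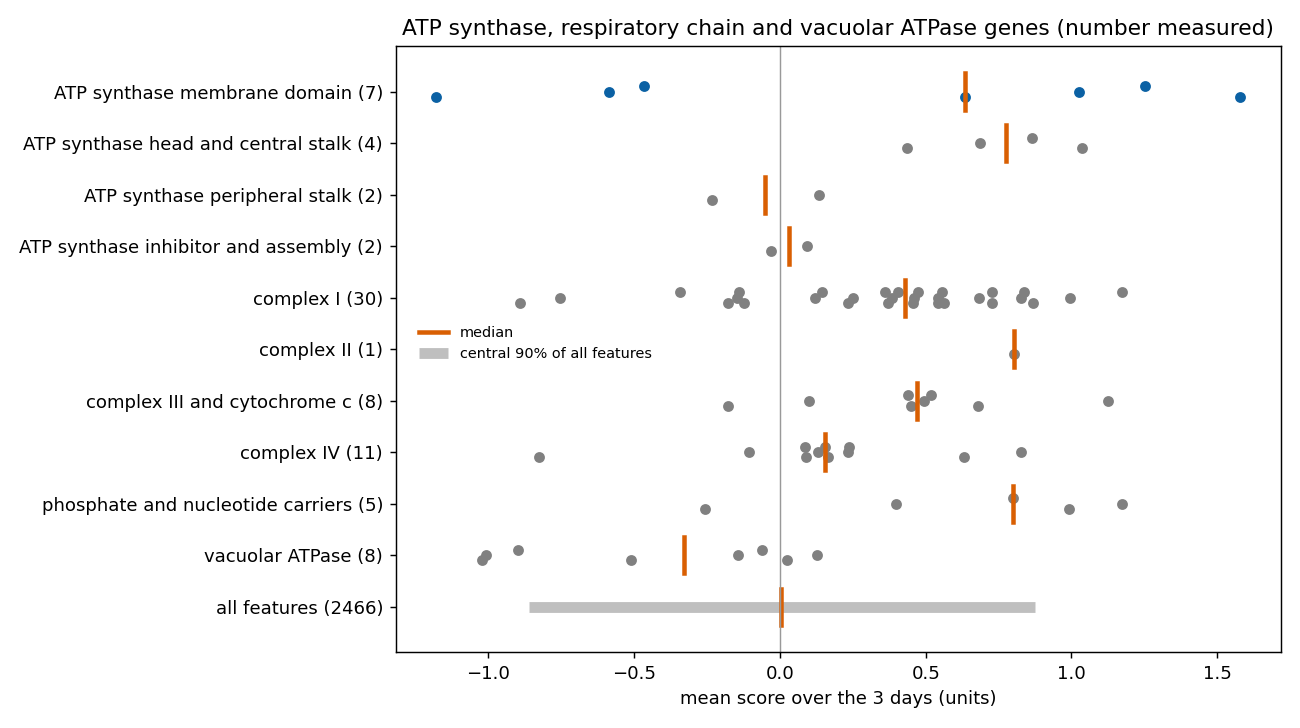
Mean score over the 3 days (horizontal axis, units) of each measured gene of the ATP synthase parts, the respiratory complexes, the carriers and the vacuolar ATPase, with the number measured in brackets; orange bars are medians and the grey bar the central 90% of all features. The 7 membrane domain genes (blue) run from -1.18 to 1.58.

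The named genes whose scores were most like each member's over the 6 arrays were found by the root mean square difference. Nearest to ATP5MC3 were TOB2 at 0.70 units, the malate dehydrogenase MDH2 at 0.83 and the mitochondrial protein CHCHD2 at 0.84. The first spot of ATP5MC3 is number 1859, and those of TOB2, MDH2 and CHCHD2 are 1007, 1759 and 1767. MDH2 and CHCHD2 thus lie near it in spot order. Nearest to ATP5MG were RPL27 at 0.69, COX8A at 0.74 and TBCA at 0.76. COX8A, a subunit of cytochrome c oxidase, scored -2.03 and -3.54 on day 6, close to the ATP5MG scores, and between -0.04 and 0.32 on the earlier arrays. The first spots of COX8A and RPL27 are numbers 289 and 297, in the same stretch as ATP5MG. ATP5MK was nearest to SURF1, an assembly factor of cytochrome c oxidase, at 0.99, then to DMAP1 at 1.02 and CTSD at 1.10. Its first spot is number 1753, and those of SURF1, DMAP1 and CTSD are 4063, 1053 and 1861. ATP5MC2 was nearest to RPS25 at 0.51, EEF1G at 0.62 and GRK2 at 0.67, and EEF1G shares with it the wide gap between day 6 spots. ATP5MC1 was nearest to MFF, TIMP2 and SLC39A13 (0.35 to 0.41), ATP5MF to MT1X, TSG101 and SNRNP25 (0.35 to 0.38), and ATP5MJ to GYG1, GCN1 and NAIP (0.31 to 0.44). Genes with scores close to 0 lie nearer to one another by this measure.

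The probes around some members were not centred on 0. On day 6 the median of the 10 neighbouring probes, taken at even places up to 10 on either side in spot order, was 1.28 around ATP5MC2, -0.97 around ATP5MG and -1.03 around ATP5MC3. With it subtracted, the day 6 mean was 1.11 for ATP5MC2 and 3.19 for ATP5MC3, which then passed in the limma fit (adjusted p = 0.0350, 0.0350 to 0.722 over all alternatives). On day 3 the same median was between -0.15 and 0.86 around the 7 members, and ATP5MC3 stood at 1.94 and ATP5MK at 2.80 with it subtracted. How many of all features passed that fit with neighbouring probes subtracted was not counted. The part of array position in these scores was not tested.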

How the data were processed

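Per the labels' protocols, Trizol RNA was made into cDNA and labelled by tyramide amplification. Each deposited score belongs to 1 spot; the sources used here do not say how the authors scanned, filtered or normalised the arrays. Values reach 21.6, beyond a log2 ratio of a usual scanner, so they were not read as log2 ratios and no fold changes are given. The file held 0 missing values.

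Duplicate spots and then probes of a gene were averaged to 2466 features, centred on each array's median. GEO's platform annotation named the probes. Tests used limma 3.58.1 in R 4.3.3 on all features, with Benjamini-Hochberg adjustment and a threshold of 0.05: an intercept over 3 day means, and a fit of 6 arrays with the days as coefficients. Its p-values rest on differences among these samples that may be technical. The script was tested on simulated data. Replicate letters mark dye orientation. Deviations from the day means correlated at -0.04 to -0.00184 between arrays with the same letter. With 2 arrays per day the deviations of A and B mirror each other, so these values do not settle whether a letter marks a shared sample. The main fits did not pair samples by letter.

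Members and lists were chosen with earlier results of these data known. Besides the members, the genes named are the highest and lowest of each list and the 3 genes nearest each member; ATP5F1B, EEF1G, and the genes of the closing section were picked after their values were seen. Alternatives changed the spots used, centring, scaling, probes, neighbours, prior, features, thresholds and arrays. Plots came from matplotlib 3.10.9 under Python 3.11.15.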

Additional observations from a re-analysis of the deposited data

How the results depend on the processing

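The 7 means over the days kept their side of 0 under all alternatives, except that of ATP5MC2 on even-numbered spots alone (-0.23). On those spots its day 6 mean was -1.18 and its move from day 1 to day 6 was -0.95. With 1 array left out in turn or a whole day, 0 to 2 members passed the shared test; the 2 were ATP5MC3 and ATP5MK without day 1, and 0 passed under every other alternative run. Over the whole table the shared test passed 5 features with the replicate block as a dye term, 16 on odd-numbered spots, 4 on even-numbered spots, 4 with neighbouring probes subtracted, 2 with named genes alone and 0 to 29 with an array or day left out, against 9. The 3 calls at 2 units on both arrays of a day were summed over the days. At a threshold of 1 unit there were 7 such calls, with ATP5MC3 called on days 3 and 6 and ATP5MJ on no day. The share of all features at that threshold was not counted. At 2 units there was 1 call with arrays scaled alike (ATP5MC2) and 1 on even-numbered spots (ATP5MK on day 3). With neighbouring probes subtracted there was 1 (ATP5MC3 on day 6). With 1 array left out there were 3 to 4, where a day left with 1 array was judged on that array. In the limma fit by day, 1 member passed on odd-numbered spots (ATP5MC2 on day 6) and 1 with neighbouring probes subtracted. Between days 1 member passed on odd-numbered spots. For the fits by day and between days, the share of all features passing was counted only in the main setting. In fits that left out an array, the lone array of that day is assumed to vary like those of the other days. The replicate block changed no call of a member. The number of arrays limits the precision, and why these settings moved the values was not tested.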

Other observations

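On the day 6 replicate B, the 11 probes with spots at least as far apart as those of ATP5MC2 included 3 more genes of oxidative phosphorylation, named here after their values were seen. UQCR11 had 7.60 on its odd-numbered spot and -3.52 on its even-numbered spot, ATP5F1E 6.98 and -3.31, and 1 of the 3 probes of NDUFB11 6.61 and -4.11. EEF1G, an elongation factor, had 7.55 and -3.22. On the day 6 replicate A these odd-numbered spots were also high, at 4.72 for UQCR11, 6.20 for ATP5F1E, 5.81 for NDUFB11 and 4.74 for EEF1G, and their even-numbered partners stood at -1.01, -0.83, -1.95 and 0.20. Day 6 averages of these genes therefore rest on spots that disagree, and the cause was not tested.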
